A study of Mus musculus with 19 samples.

Results

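Collagens, laminins and integrins are the main building blocks of the extracellular matrix and the receptors that hold cells to it, and their transcripts were measured here in the hippocampus of an amyloid mouse model. The genes were chosen by name: every RefSeq symbol of the form Col, number, a, number, every numbered Lama, Lamb or Lamc gene, and every numbered Itga or Itgb gene, without Itgb2, which encodes the beta subunit of the leukocyte integrins. That gave 73 genes with a probe, of which 44 encode collagen chains, 11 laminin chains and 18 integrin subunits. A gene counted as measured where its probe was well above background on at least 6 of 19 arrays. That held for 62, namely 36 collagens, 11 laminins and 15 integrins, among 25603 genes tested in all. Only 16104 of the 25603 had a RefSeq symbol, and the rest were transcripts counted under the array's own identifier. Shares of all genes given below include these unnamed entries, whereas every member has a symbol. Of these 62, 50 were well above background on every array. The 11 genes that did not pass were Col10a1, Col14a1, Col15a1, Col24a1, Col28a1, Col4a3, Col4a4, Col6a6, Itga2, Itga5 and Itgb6. Itga5 was above background on 5 arrays, just outside the limit, and the others on at most 2. The dimmest gene that passed, Col9a1, was above background on 8 arrays.

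The samples were hippocampi of mice aged 8 months in 3 groups. The first group, 6 APP/PS1 mice, received urolithin A (UA), which gut microbes form from plant polyphenols, by gavage in dimethyl sulfoxide (DMSO) at 200 mg per kg per day over the last 2 months. The second group was 7 APP/PS1 mice given DMSO alone, and the third was 6 wild-type (WT) littermates given DMSO alone, so that all groups shared the solvent. APP/PS1 mice carry transgenes for mutant amyloid precursor protein and presenilin and deposit amyloid in the brain. The labels name neither the promoter nor sex.

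Collagens are trimers of chains that differ by type. Fibrillar collagens form the fibrils of connective tissue, the Col4 chains form the sheet of basement membranes together with laminin trimers of an alpha, a beta and a gamma chain, and smaller collagens decorate fibrils or span the cell membrane. In the brain these proteins lie mostly around vessels, in the meninges and under the choroid plexus, while glia and neurons contact them through integrins, which are pairs of an alpha and a beta subunit. Col25a1 encodes a transmembrane collagen whose shed part is found in amyloid plaques.

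Levels are given as log2 of the array signal relative to the 75th percentile of the same array, so that 1 unit is a doubling, and levels of different genes are not set against each other because each has its own probe. That percentile ran from 664 to 1776 intensity units over the arrays. All 8 hippocampal markers examined were well above background on every array. So were all 5 thalamus markers examined, so that detection alone does not tell these regions apart. The arrays lay on 3 slides: slide 1 held 2 APP/PS1 vehicle and all 6 WT arrays, slide 2 held 3 UA and 5 APP/PS1 vehicle arrays, and slide 3 held 3 UA arrays. Xist and 4 Y-linked genes marked 1 of 6 UA, 3 of 7 APP/PS1 vehicle and 1 of 6 WT arrays as female.

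The arrays also fell into 2 clusters by Ttr, the transthyretin gene, which in the brain is transcribed chiefly by choroid plexus epithelium. On 10 arrays the Ttr level was between 8.33 and 9.40, and on 9 it was between -2.98 and 4.24. The high cluster held 4 of 6 UA, 5 of 7 APP/PS1 vehicle and 1 of 6 WT arrays, so that Ttr was unevenly spread over the groups, with medians of 8.53, 8.41 and 2.93. The WT array in the high cluster was replicate 3, at 9.14. In bulk tissue, fewer cells of a type and less RNA per cell cannot be told apart.

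In APP/PS1 vehicle hippocampus, 3 of the 62 measured genes passed the test against WT. The integrin subunit genes Itgb5 and Itga6 rose, by 1.42-fold and 1.26-fold, and the laminin chain gene Lama3 fell by 1.55-fold. None of the 36 collagen genes passed at a limma adjusted p under 0.05, and 9 of them had an unadjusted p under 0.05. The share of members called, 4.84%, was near the 5.03% of all genes tested, of which 2.86% were higher and 2.18% lower. Most members nonetheless stood on the same side: 52 differences were above 0 and 10 below, 83.9% above 0 in contrast to 52.1% of all genes, with a median log2 difference of 0.24 in contrast to 0.013. That tilt was carried by 30 of 36 collagens and 14 of 15 integrins, and 8 of 11 laminins were above 0 with a median of 0.02. Both vehicle arrays on slide 1 were in the high Ttr cluster, as was 1 of its 6 WT arrays. With Ttr as a covariate, within slide 1 and in the deposited values, 44 of 62 were above 0. These are counts over genes that share arrays, and at an unadjusted p under 0.05 the shares were 27.4% of members and 23.6% of all genes.

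Itgb5, on chromosome 16, encodes an integrin beta subunit that pairs with the alpha-v subunit and binds vitronectin. Its level ran from 2.42 to 2.84 with a median of 2.69 on the 7 APP/PS1 vehicle arrays, and from 1.92 to 2.35 with a median of 2.13 on the 6 WT arrays. The lowest vehicle array lay above the highest WT array, so the groups did not overlap. The log2 difference was 0.50 (SE 0.086, limma adjusted p = 0.00296), with 7 of 7 vehicle arrays above the WT mean. Itga6, on chromosome 2, encodes an alpha subunit of laminin receptors. Its level ran from 1.48 to 1.71 with a median of 1.56 on vehicle arrays, and from 1.14 to 1.41 with a median of 1.196 on WT arrays, again with no overlap. The difference was 0.34 (SE 0.0688, adjusted p = 0.0111), and 7 of 7 vehicle arrays lay above the WT mean. Groups that do not overlap were found for these 2 of 62 members, or 3.23%, and for 2.32% of all genes. A second, dimmer probe of Itga6 did not pass (difference 0.15, SE 0.092, adjusted p = 0.344).

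Lama3 encodes the alpha chain of an epithelial laminin and lies on chromosome 18. Its level ran from -4.58 to -3.49 with a median of -4.38 on vehicle arrays, and from -4.01 to -3.31 with a median of -3.59 on WT arrays. All but 1 of the vehicle arrays lay below the WT mean, and the groups overlapped. The difference was -0.63 (SE 0.168, limma adjusted p = 0.0391). Lama3 was well above background on 18 of 19 arrays. With the background modelled by normexp in place of the scanner's subtraction the difference was -0.03 (adjusted p = 0.815).

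**Figure D1:**
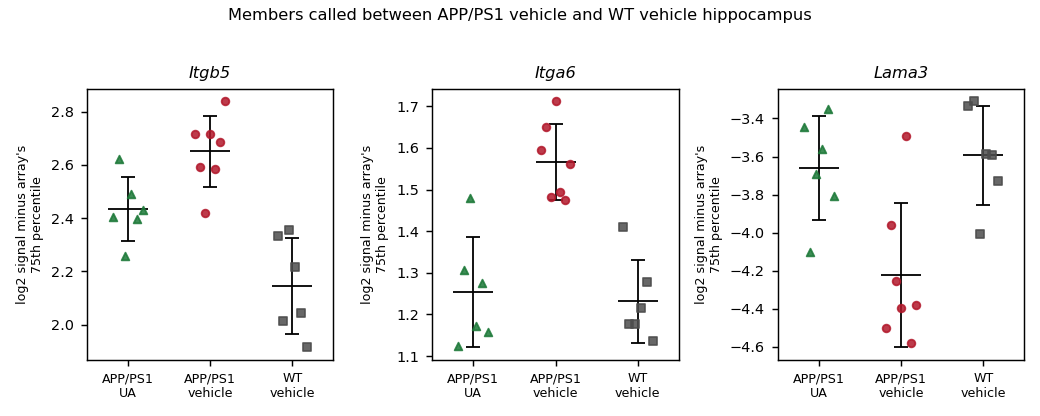
Levels of Itgb5, Itga6 and Lama3 on each array (log2 signal relative to the array's 75th percentile) in APP/PS1 UA (n = 6), APP/PS1 vehicle (n = 7) and WT vehicle (n = 6) mice; each point is an array, the bar the mean and the error bar the SD. For Itgb5 and Itga6 every APP/PS1 vehicle array lies above every WT array, and for Lama3 the groups overlap.

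Slide and genotype were nearly the same split, since all WT arrays lay on slide 1. The 2 vehicle arrays on that slide were both in the high Ttr cluster, at 8.76 and 8.33, as was 1 of its 6 WT arrays. The contrast within slide 1 is thus also nearly one between Ttr clusters, and the difference with slide as a block rests on the same arrays. Within that slide, where 2 vehicle arrays can be set against 6 WT arrays, the differences were as large, at 0.51 for Itgb5, 0.39 for Itga6 and -0.64 for Lama3, and the adjusted p was 0.150, 0.135 and 0.183. With slide as a block 0 of 62 members passed (adjusted p = 0.116 for Itgb5 and for Itga6, 0.251 for Lama3), and 78 of all genes did. With Ttr as a covariate Itgb5 and Itga6 passed (0.44, adjusted p = 0.00207, and 0.33, adjusted p = 0.0152), while Lama3 was at -0.55 (adjusted p = 0.0562).

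Cell type markers moved with this comparison. Of 10 microglia markers 8 rose, and their mean level ran from 2.05 to 2.38 on APP/PS1 vehicle arrays and from 0.69 to 1.01 on WT arrays. Of 8 astrocyte markers 3 rose, with mean levels from 2.55 to 2.73 and from 2.18 to 2.47 on the same arrays. None of 12 endothelial, 12 mural or 13 meningeal and perivascular fibroblast markers passed. Above 0 were 11 of the endothelial, 8 of the mural and 10 of the fibroblast markers, with medians of 0.19, 0.05 and 0.22. An unadjusted p under 0.05 was reached by 3, 1 and 1 of them. All 14 choroid plexus markers were above 0, with a median difference of 1.77 and mean levels from -4.24 to 3.46 on APP/PS1 vehicle arrays and from -2.43 to 2.83 on WT arrays. All 6 neuron markers were below 0, with a median of -0.28 and mean levels from 5.15 to 5.61 on APP/PS1 vehicle arrays and from 5.50 to 5.97 on WT arrays. None of these 20 passed, and 1 choroid plexus and 4 neuron markers had an unadjusted p under 0.05. The part of these cell types in the members' differences was not tested.

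Among the other integrin genes, none passed. Itgb8, whose product pairs with alpha-v and activates latent TGF-beta, ran from -3.41 to -2.27 with a median of -3.18 on vehicle arrays and from -4.00 to -2.81 with a median of -3.76 on WT arrays. The highest WT value was replicate 3, the array in the high Ttr cluster, and the next was -3.68. The difference of 0.64 (1.56-fold, SE 0.209) had a limma adjusted p of 0.0777, and without that array it was 0.81 (adjusted p = 0.0166). Itgb1, the beta subunit shared by most matrix-binding integrins, was at 1.77 ± 0.12 in vehicle and 1.63 ± 0.16 in WT hippocampus (SD, n = 7 and 6), a difference of 0.15 with an SE of 0.0852 (adjusted p = 0.302). All 6 beta subunit genes had differences above 0, with a median of 0.25.

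Laminin genes split between higher and lower values. Lamb2, a beta chain of vessel and synaptic laminins, averaged -0.47 ± 0.24 in vehicle and -0.82 ± 0.23 in WT hippocampus, a difference of 0.35 (SE 0.134, limma adjusted p = 0.127). Lama5, the alpha chain of a widespread basement membrane laminin, averaged -0.77 ± 0.62 and -1.45 ± 0.47 in the same groups, a difference of 0.68 (1.6-fold, SE 0.276, adjusted p = 0.149), which was 0.38 with Ttr as a covariate. Chains that make up much of the vessel basement membrane did not pass. Lamc1, the common gamma chain, was at 0.65 ± 0.18 and 0.63 ± 0.07 (difference 0.02, SE 0.0819). Lama4, the alpha chain of endothelial laminin, was at -2.61 ± 0.42 and -2.85 ± 0.20 (difference 0.24, SE 0.161, adjusted p = 0.362).

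The collagen genes leaned upward by class without any member passing. All 6 measured basement membrane collagens and 9 of 10 fibrillar collagens had differences above 0, with medians of 0.33 and 0.32. So had 7 of 8 network and microfibril, 5 of 8 fibril-associated and 3 of 4 transmembrane collagens, and the lowest value was -0.76 for fibril-associated Col12a1. Slopes on Ttr, described further on, were called for 3 of the 6 basement membrane and 2 of the 10 fibrillar collagens. Col4a1 and Col4a2 encode the chains of the main basement membrane collagen. Col4a1 averaged -0.53 ± 0.24 in vehicle and -0.75 ± 0.09 in WT hippocampus (difference 0.22, SE 0.0991, limma adjusted p = 0.195). Col4a2 averaged -0.54 ± 0.22 and -0.68 ± 0.17 (difference 0.13, SE 0.104, adjusted p = 0.445). Without vehicle replicate 7 these differences were 0.13 for Col4a1 and 0.069 for Col4a2, which was at 0.071 without WT replicate 1. They start 21 bases apart on opposite strands of chromosome 8. Their levels lay on the same side of their group means on 11 of 19 arrays. That was also the median for Col4a1 with the other 60 members. This count takes the side only and not the size of a deviation, so it does not measure how closely the pair moved together. Both had their highest level on vehicle replicate 7, -0.04 for Col4a1 and -0.16 for Col4a2, and their lowest on different arrays.

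The fibroblast collagens are the chains of the major fibrils made by meningeal and perivascular fibroblasts. Col1a1 averaged -0.22 ± 0.23 in vehicle and -0.48 ± 0.20 in WT hippocampus (difference 0.26, 1.2-fold, SE 0.108, limma adjusted p = 0.155). A second, slightly dimmer probe of Col1a1 differed by 0.43 (SE 0.124, limma adjusted p = 0.0567). Col1a2 averaged 2.35 ± 0.37 and 1.97 ± 0.32 (difference 0.37, adjusted p = 0.171), and Col3a1 averaged -1.14 ± 0.20 and -1.22 ± 0.17 (difference 0.08, adjusted p = 0.654). The plaque-associated Col25a1 did not pass either. It averaged -2.77 ± 0.34 in vehicle and -3.13 ± 0.41 in WT hippocampus, a difference of 0.36 (1.28-fold, SE 0.205, adjusted p = 0.288), and its second probe pointed the other way, at -0.73. Of the minor collagens, Col20a1, a fibril-associated chain, was at -2.68 ± 0.49 and -3.15 ± 0.20 (difference 0.48, adjusted p = 0.126, and 0.31 without vehicle replicate 6, which was at -1.67). The fibrillar chain gene Col11a2 was at -2.61 ± 0.36 and -3.20 ± 0.55 (difference 0.59, adjusted p = 0.136).

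**Figure D2:**
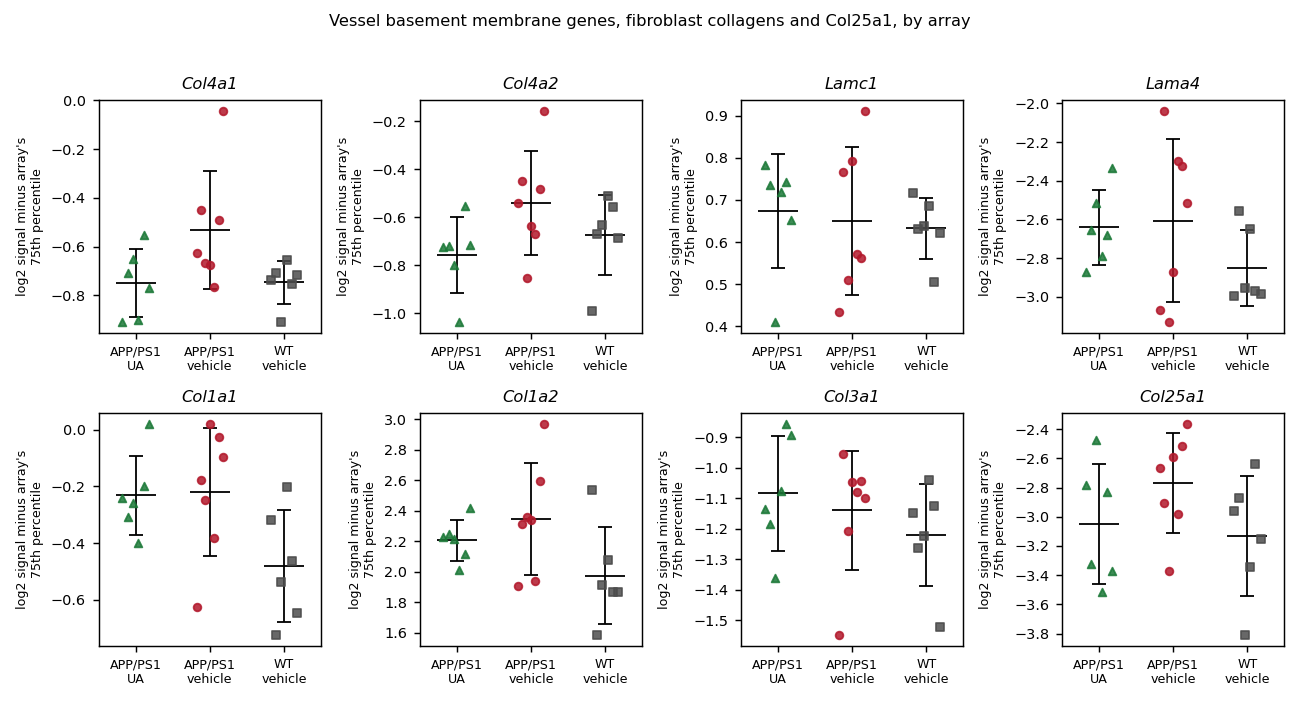
Levels of the vessel basement membrane genes Col4a1, Col4a2, Lamc1 and Lama4, the fibroblast collagens Col1a1, Col1a2 and Col3a1, and Col25a1 on each array (log2 signal relative to the array's 75th percentile), by group; each point is an array, the bar the mean and the error bar the SD. The groups overlap in each of the 8 panels.

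The sizes the arrays could separate bear on these values. The SE of a member's difference between vehicle and WT mice had a median of 0.20 and ran from 0.069 to 1.04. Of the 62 differences, 29 were within 1.2-fold and 10 were over 1.5-fold, but only Lama3 of those 10 passed. The widest SE belonged to genes that varied with Ttr, described further on.

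The wider matrix machinery showed 1 call between vehicle and WT mice, a comparison in which 5.03% of all genes passed. Of 21 measured genes of collagen processing and turnover, Loxl2, a lysyl oxidase that cross-links collagen, rose 1.64-fold. It averaged -2.56 ± 0.43 in vehicle and -3.28 ± 0.19 in WT hippocampus (difference 0.71, SE 0.179, limma adjusted p = 0.0309). Its relative Lox was at 0.74 (adjusted p = 0.0506). None of 23 basement membrane and matrix glycoproteins passed, with Ecm1 at 0.32 (adjusted p = 0.107) and Hspg2, the perlecan gene, at 0.33 (0.242). None of 9 brain proteoglycan genes passed, with Hapln4 at -0.38 (0.203) and Cspg5 at -0.17 (0.38). None of 24 integrin adaptors and other matrix receptors passed, with Tln1, the talin gene, at 0.41 (0.0651) and Fermt3, the kindlin gene of blood-forming lineages, at 0.40 (0.0763). Unadjusted p values under 0.05 numbered 1, 8, 1 and 2 in the glycoprotein, processing, proteoglycan and adaptor lists.

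UA-treated and vehicle-treated APP/PS1 mice were compared to see what differed with the compound. No member passed, and neither did any of the 25603 genes (0% called by limma). An unadjusted p under 0.05 was reached by 8 of 62 members, 12.9%, and by 15.5% of all genes, and the groups overlapped for every member but not for 0.848% of all genes. With normexp background correction 4 of 62 members were lower at a limma adjusted p under 0.05, namely Itga6, Col11a1, Col5a3 and Itga1. Under that setting 1958 of 25603 genes passed, only 6.08% of them higher, and the median over all genes moved to -0.078. This comparison shares the vehicle arrays with the preceding one, so opposite signs in the pair are not independent. Of the 62 differences 43 were below 0, among them 27 of 36 collagens and 12 of 15 integrins, and 7 of 11 laminins were above 0. The median over members was -0.12, and over all genes -0.0060.

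Itga6 had the smallest p among the members. Its level ran from 1.12 to 1.48 with a median of 1.22 on UA arrays, against 1.48 to 1.71 with a median of 1.56 on vehicle arrays. The groups overlapped at their edges only, where the highest UA array and the lowest vehicle arrays were near 1.48. The difference of -0.31 (1.24-fold, SE 0.0688) had a limma adjusted p of 0.0996, with 6 of 6 UA arrays below the vehicle mean, and was -0.24 with slide as a block (adjusted p = 0.531). Itgb5 ran from 2.26 to 2.62 on UA arrays, against 2.42 to 2.84 on vehicle arrays (difference -0.22, SE 0.086, adjusted p = 0.24). Lama3 ran from -4.10 to -3.35 on UA arrays, against -4.58 to -3.49 on vehicle arrays (difference 0.56, 1.48-fold, SE 0.168, adjusted p = 0.157), and with normexp the difference was -0.02.

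The collagens with the smallest p were Col7a1, Col20a1, Col11a1, Col5a3 and Col4a1, none of which passed. Col7a1, the anchoring fibril collagen, averaged -2.02 ± 0.40 in UA and -1.43 ± 0.45 in vehicle hippocampus (SD, n = 6 and 7), a difference of -0.59 (1.51-fold, SE 0.201, limma adjusted p = 0.198). Col20a1 averaged -3.15 ± 0.22 and -2.68 ± 0.49 (difference -0.47, adjusted p = 0.234), and the difference was -0.30 without vehicle replicate 6. The largest difference was that of the fibrillar chain gene Col11a1, at -3.96 ± 0.75 and -3.09 ± 0.72 (difference -0.87, 1.83-fold, SE 0.333, adjusted p = 0.23), and its UA mean included 1 array at -5.40. Col5a3, another fibrillar chain gene, was at -3.07 ± 0.27 and -2.56 ± 0.56 (difference -0.51, adjusted p = 0.254). Col4a1 and Col4a2 were both at -0.22 (adjusted p = 0.302 and 0.326), with means of -0.75 ± 0.14 and -0.76 ± 0.16 in UA hippocampus.

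None of the other vessel and fibroblast genes passed between UA and vehicle mice. Lamc1 differed by 0.02 (SE 0.0819), Lama4 by -0.03 (SE 0.161), Col1a1 by -0.01 (SE 0.108) and Col3a1 by 0.05 (SE 0.104). The second probe of Col1a1 was at -0.17 (SE 0.124). Col1a2 differed by -0.14 (SE 0.16), Itgb1 by -0.05 (SE 0.0852) and Col25a1 by -0.28 (SE 0.205, limma adjusted p = 0.512). Of all 62 differences 42 were within 1.2-fold, and only those of Col7a1 and Col11a1 were over 1.5-fold.

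No gene of the wider matrix lists passed between UA and vehicle mice. The members of smallest p were Eln at 0.37 (limma adjusted p = 0.427) and Ecm1 at -0.18 among glycoproteins, Plod3 at -0.22 (0.173) and Bmp1, a procollagen protease gene, at -0.58 (0.184) among processing genes, Hapln1 at 0.23 (0.255) and Cspg5 at 0.18 among proteoglycans, and Tln1 at -0.39 (0.187) and Fermt3 at -0.33 (0.237) among adaptors. Of 10 microglia markers 9 were below 0 and none passed, while 7 had an unadjusted limma p under 0.05. Their mean levels ran from 1.60 to 2.11 on UA arrays and from 2.05 to 2.38 on vehicle arrays. Of 13 meningeal and perivascular fibroblast markers 12 were above 0, with mean levels from -0.23 to 0.89 on UA arrays and from -0.81 to 0.76 on vehicle arrays. All 6 neuron markers were also above 0, as were 7 of 12 mural and 4 of 8 astrocyte markers. Below 0 were all 6 oligodendrocyte, all 4 measured blood, 9 of 12 endothelial and 10 of 14 choroid plexus markers. The part of these cell types in the members' values was not tested.

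UA-treated APP/PS1 mice were also set against WT mice. No slide held both UA and WT arrays, so this comparison is also one between slides. No member passed by limma, while 23 of all genes, 0.0898%, did, all of them higher, and 3 of 10 microglia markers were among the calls. An unadjusted p under 0.05 was reached by 4 of 62 members, 6.45%, and by 8.66% of all genes. Groups overlapped for every member and did not for 1.04% of all genes. Differences above 0 numbered 41 of 62, with a median of 0.09, and 45 were within 1.2-fold.

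The smallest p among members was again that of Itgb5, with levels from 2.26 to 2.62 on UA arrays and from 1.92 to 2.35 on WT arrays. Every UA array lay above the WT mean, the groups overlapped, and the difference of 0.29 (1.22-fold, SE 0.0892) had a limma adjusted p of 0.362. Itgb8 averaged -3.13 ± 0.29 in UA and -3.65 ± 0.42 in WT hippocampus (SD, n = 6 each; difference 0.51, adjusted p = 0.533). Itga9, whose product binds tenascin, averaged -2.42 ± 0.16 and -2.74 ± 0.13 (difference 0.32, 1.25-fold, SE 0.138, adjusted p = 0.535), with 6 of 6 UA arrays above the WT mean. Col1a1 averaged -0.23 ± 0.14 and -0.48 ± 0.20 (difference 0.25, adjusted p = 0.551), likewise with 6 of 6. With slide as a block the Col1a1 difference was -0.045 (SE 0.209). That value is indirect, reached only through the vehicle arrays that link slides 1 and 2. Itga6 differed by 0.02 (adjusted p = 0.959) and Lama3 by -0.07 (adjusted p = 0.942).

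The remaining named genes did not pass between UA and WT mice. The transmembrane collagen gene Col13a1 differed by 0.66 (limma adjusted p = 0.65), Col8a1 by 1.61 (SE 0.994, adjusted p = 0.675), and the laminin alpha chain genes Lama1 and Lama5 by 0.31 (0.681) and 0.44 (0.687). With Ttr as a covariate Col13a1, Col8a1 and Lama5 were at 0.43, 0.58 and 0.17. Col4a1 differed by -0.0019 (limma adjusted p = 0.998), Col4a2 by -0.08, Lamc1 by 0.04, Lama4 by 0.21, Col1a2 by 0.23, Col3a1 by 0.14, Itgb1 by 0.10 and Col25a1 by 0.08. None of the matrix lists had a call: Thbs1 was at 0.66 and Nid2 at 0.75, Lox at 0.70 (adjusted p = 0.381) and Loxl2 at 0.42, Hapln1 at 0.15 and Bcan at 0.11, and Src at -0.22 (0.412) and Ddr2, a collagen receptor kinase gene, at 0.40.

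**Figure D3:**
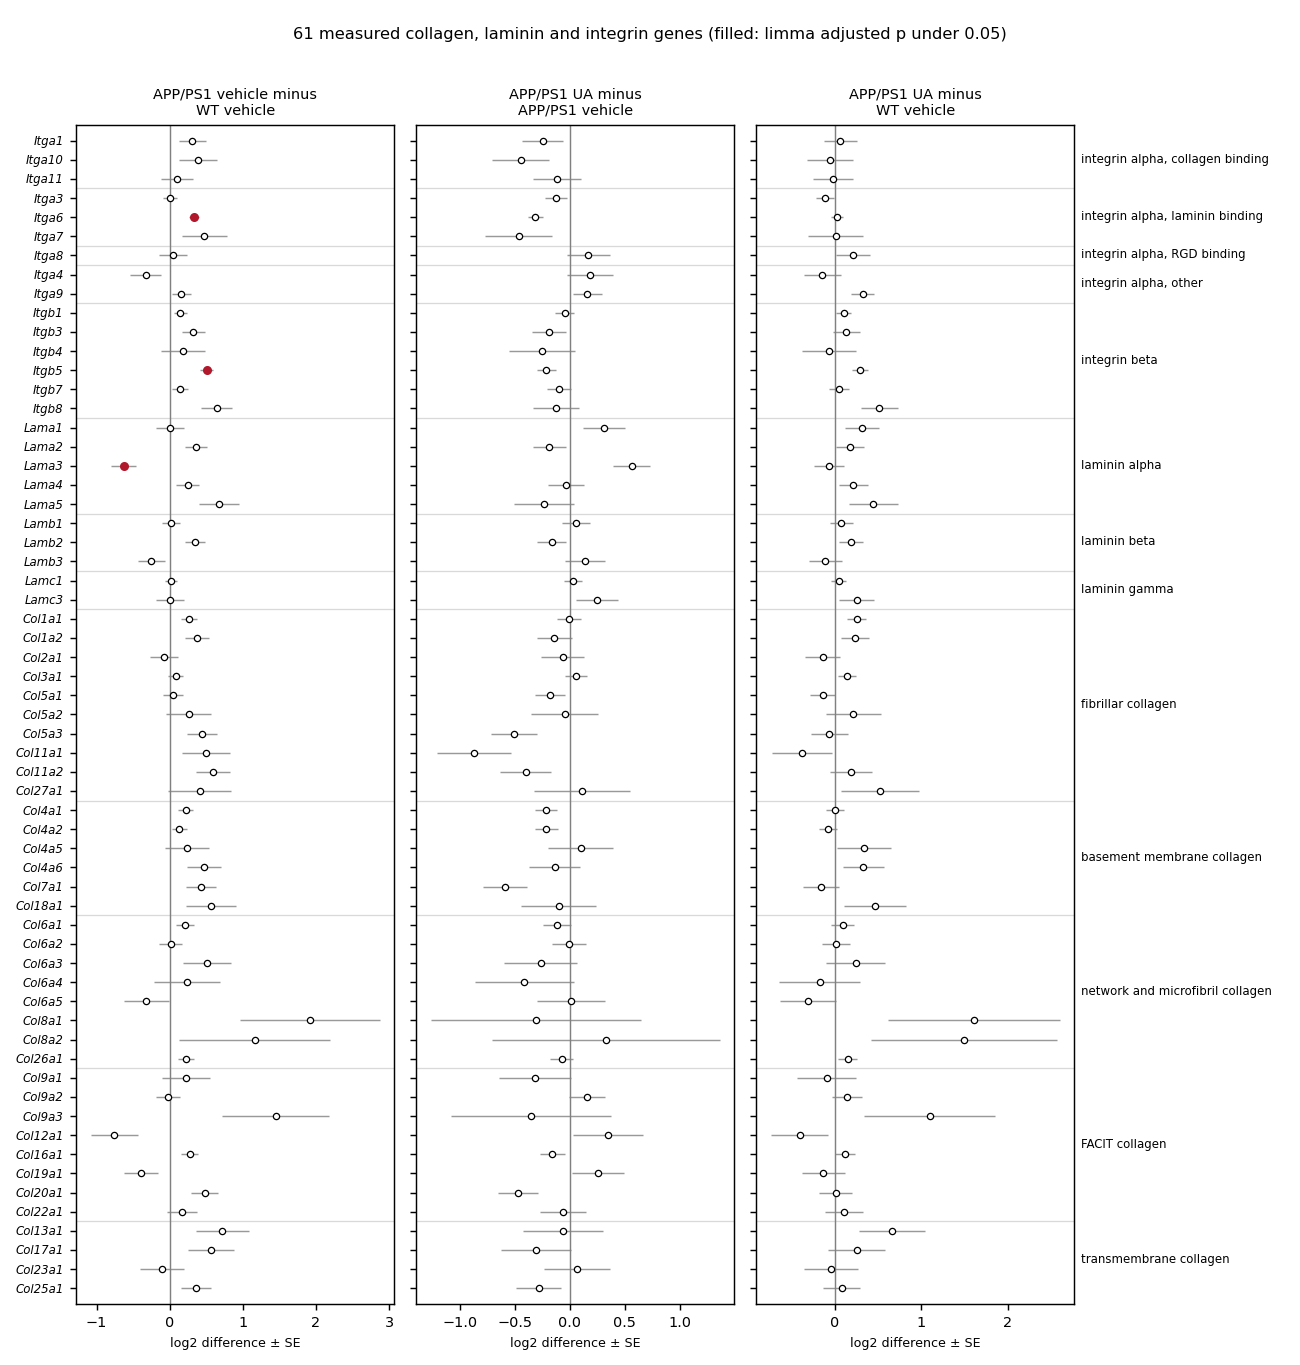
Log2 difference of 61 of the 62 measured members, ordered by class, for APP/PS1 vehicle against WT, APP/PS1 UA against APP/PS1 vehicle, and APP/PS1 UA against WT; error bars are the SE of the limma fit and filled points passed an adjusted p under 0.05. Filled points are Itgb5, Itga6 and Lama3, all in the vehicle against WT panel.

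The spread of several members within groups followed Ttr. A slope on the Ttr level, fitted within groups, passed for 18 of 62 members (29%), all of them positive, and for 21% of all genes, 8.93% with a positive and 12.1% with a negative slope. The calls comprised 9 of 36 collagens, 3 of 11 laminins and 6 of 15 integrins. The median slope was 0.027 per log2 unit of Ttr over members and -0.0051 over all genes. Since the arrays form 2 clusters by Ttr, these slopes mostly contrast the clusters, and levels in each are given for that reason.

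Col8a1 and Col8a2, which encode the chains of the network collagen best known from Descemet's membrane of the cornea, and Col9a3, a chain of a fibril-associated collagen of cartilage, were the 3 members whose deviations from group means were most like those of Ttr over the 19 arrays. Col8a1 and Col8a2, with Lama5, are shown here by the 250 bases before their RefSeq transcription start (assembly GRCm38.p6). These members varied together, and their windows were picked because each holds the same motif several times. Capitals mark the GC box GGGCGG on either strand, the letters bound by Sp1-type factors, found 4 times in each window.
Col8a1: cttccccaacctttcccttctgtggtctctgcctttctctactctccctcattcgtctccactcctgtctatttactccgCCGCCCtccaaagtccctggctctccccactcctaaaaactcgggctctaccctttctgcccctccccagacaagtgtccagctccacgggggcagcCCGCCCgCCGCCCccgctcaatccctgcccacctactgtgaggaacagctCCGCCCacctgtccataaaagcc
Col8a2: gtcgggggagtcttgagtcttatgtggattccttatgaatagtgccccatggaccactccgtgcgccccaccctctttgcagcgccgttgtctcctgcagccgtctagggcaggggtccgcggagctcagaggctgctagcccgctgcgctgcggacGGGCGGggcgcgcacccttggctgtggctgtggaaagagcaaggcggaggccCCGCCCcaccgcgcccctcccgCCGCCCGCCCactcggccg
Lama5: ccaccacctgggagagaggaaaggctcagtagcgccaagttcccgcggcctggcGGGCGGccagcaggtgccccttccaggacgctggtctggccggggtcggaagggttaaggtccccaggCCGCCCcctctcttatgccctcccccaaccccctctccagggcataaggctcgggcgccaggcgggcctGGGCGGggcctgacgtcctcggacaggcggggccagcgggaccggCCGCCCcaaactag
The Col8a1 window is chr16:57754738-57754987 on the minus strand, the Col8a2 window chr4:126286544-126286793 on the plus strand, where 2 of the matches overlap, and the Lama5 window chr2:180225860-180226109 on the minus strand. RefSeq windows were found for 54 of the 73 genes, 60 windows in all, and Col9a3 was not among them. A GC box lay in 30 of the 60 and in 32.7% of 32851 windows of all genes, a CCAAT box in 16 of the 60 and in 33.9% of all, and the letters TAATCC, the core bound by Otx factors, in 1 of the 60, that of Lamb2, and in 6.25% of all. None of the 3 printed windows holds CCAAT or TAATCC on either strand. The GC box was not shared by all members with a called slope on Ttr. Its matches numbered 0 for Lama2, Itga10, Itga1, Itga11, Col6a3 and Lamb2, and 1 for Col4a5, Col4a6 and Col27a1. They numbered 0 and 3 for separate windows of Col18a1, 2 for Col5a3 and 3 for Itgb5. These matches describe letters in a window, and a link between the motif and Ttr was not tested.

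Col8a2 had the steepest slope, 0.49 (SE 0.0325, limma adjusted p = 3.36e-08). On the 10 arrays of high Ttr its level ran from -0.89 to 0.55 with a median of -0.46, and on the 9 arrays of low Ttr from -6.75 to -2.63 with a median of -3.75, where it was above background on 8 of 9. Col8a1 followed with a slope of 0.45 (SE 0.036, adjusted p = 4.1e-07), at 1.73 to 3.47 on arrays of high Ttr and -1.89 to -0.71 on those of low Ttr. Col9a3 had a slope of 0.33 (SE 0.0319, adjusted p = 2.68e-06), at -0.61 to 1.17 and -3.21 to -2.51. In each of the 3 genes WT replicate 3, the WT array of high Ttr, lay with the other high arrays, at 0.05 for Col8a2, 2.70 for Col8a1 and 0.39 for Col9a3, apart from the other WT arrays.

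The other 4 members that did not overlap between the clusters encode basement membrane chains.  Lama5 ran from -0.80 to 0.21 with a median of -0.64 on arrays of high Ttr and from -1.86 to -1.36 with a median of -1.64 on those of low Ttr (slope 0.12, SE 0.0149, limma adjusted p = 4.66e-05). Col4a5, a chain of epithelial basement membrane collagen, ran from -3.03 to -2.00 and from -4.27 to -3.14 (slope 0.12, SE 0.018). Col18a1, a basement membrane collagen whose end fragment is endostatin, ran from -0.78 to 0.62 and from -1.82 to -0.95 (slope 0.13, SE 0.0254). Lama2, the laminin chain lost in a congenital muscular dystrophy, ran from -0.90 to -0.22 and from -1.46 to -0.96 (slope 0.06, adjusted p = 0.00287). Together 7 of 62 members, 11.3%, did not overlap between clusters, and 2.38% of all genes.

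**Figure D4:**
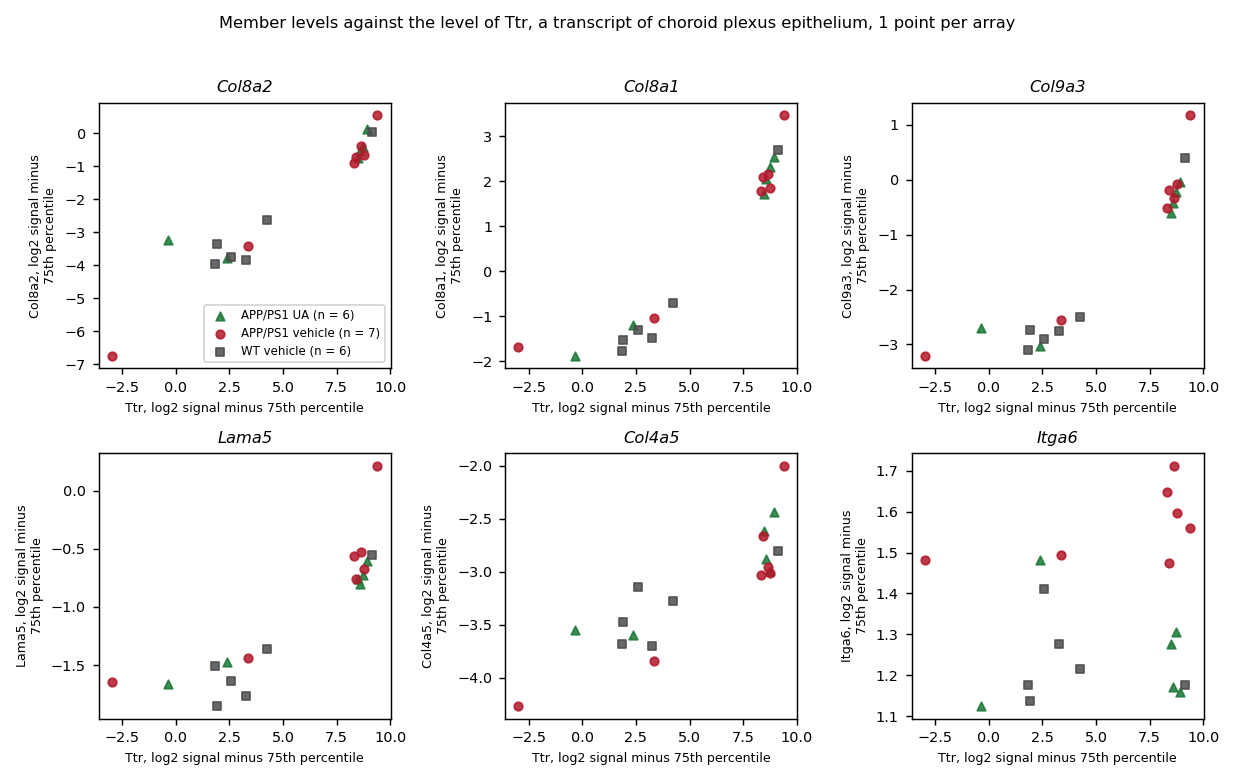
Levels of Col8a2, Col8a1, Col9a3, Lama5, Col4a5 and Itga6 against the Ttr level of the same array (both log2 signal relative to the array's 75th percentile), 1 point per array coloured by group. The first 5 genes separate the 10 arrays with Ttr over 8 from the 9 with Ttr under 5, and Itga6 does not.

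Positive slopes were also called for the integrin alpha genes Itga10 (0.09, limma adjusted p = 0.00477), Itga1 and Itga11, which are the 3 measured collagen-binding alpha subunits, and for Itga7 and Itgb4, subunits of laminin receptors. Itgb5 also had a called slope, of 0.03 (adjusted p = 0.0287), while that of Itga6 was 0.0034 (adjusted p = 0.785). The other called members were Col4a6, Col27a1, Col6a3, Col5a3 and Lamb2. The vessel and fibroblast genes had no called slope: 0.012 for Col4a1, 0.021 for Col4a2, 0.012 for Lamc1, 0.021 for Lama4, 0.0078 for Col1a1, 0.0093 for Col1a2, 0.013 for Col3a1 and -0.0099 for Col25a1. That of Itgb1 was 0.022 (adjusted p = 0.0706).

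One array weighed on the number of called slopes. Without APP/PS1 vehicle replicate 3, which had the lowest Ttr level, 8 members (12.9%) kept a call, as did 2068 of all genes (8.08%). Those members were Col8a2, Col8a1, Col9a3, Lama5, Col4a5, Col18a1, Lama2 and Itga10. The array left out also had the lowest 75th percentile, 664 intensity units. Its share of probes well above background was the smallest, 51.4%, and the next smallest was 54.3%. Which of these traits weighed on the calls was not tested. Over the 9 arrays of low Ttr alone no member and 0 of all genes passed, and over the 10 of high Ttr alone Col9a3 passed, 1 of 26 genes in all (0.102%). With normexp 14 members (22.6%) and 6389 of all genes (25%) were called. Of the members, 11 had a positive slope and Col19a1, Col23a1 and Lama3 with a negative one.

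The choroid plexus marker list varied in the same manner. Of 13 choroid plexus markers other than Ttr all 13 had a called positive slope, and the mean level of the list ran from -2.88 to 2.86 on UA, -4.24 to 3.46 on APP/PS1 vehicle and -2.43 to 2.83 on WT arrays. Positive slopes were also called for 6 of 13 meningeal and perivascular fibroblast, 3 of 12 endothelial and 6 of 6 oligodendrocyte markers, and for none of 10 microglia markers. The part of these tissues in the members' slopes was not tested. Of the matrix lists, 9 of 23 glycoproteins had positive calls, among them Nid2 and Postn at 0.20 each. Of 21 processing genes 7 were positive, including the procollagen C-proteinase enhancer gene Pcolce at 0.19 (limma adjusted p = 0.0002), and 1 negative, Timp2 at -0.09. Of 9 proteoglycans 2 were positive (Acan and Hapln2) and 1 negative (Cspg5), and of 24 adaptors and receptors 6 were positive and 3 negative.

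**Figure D5:**
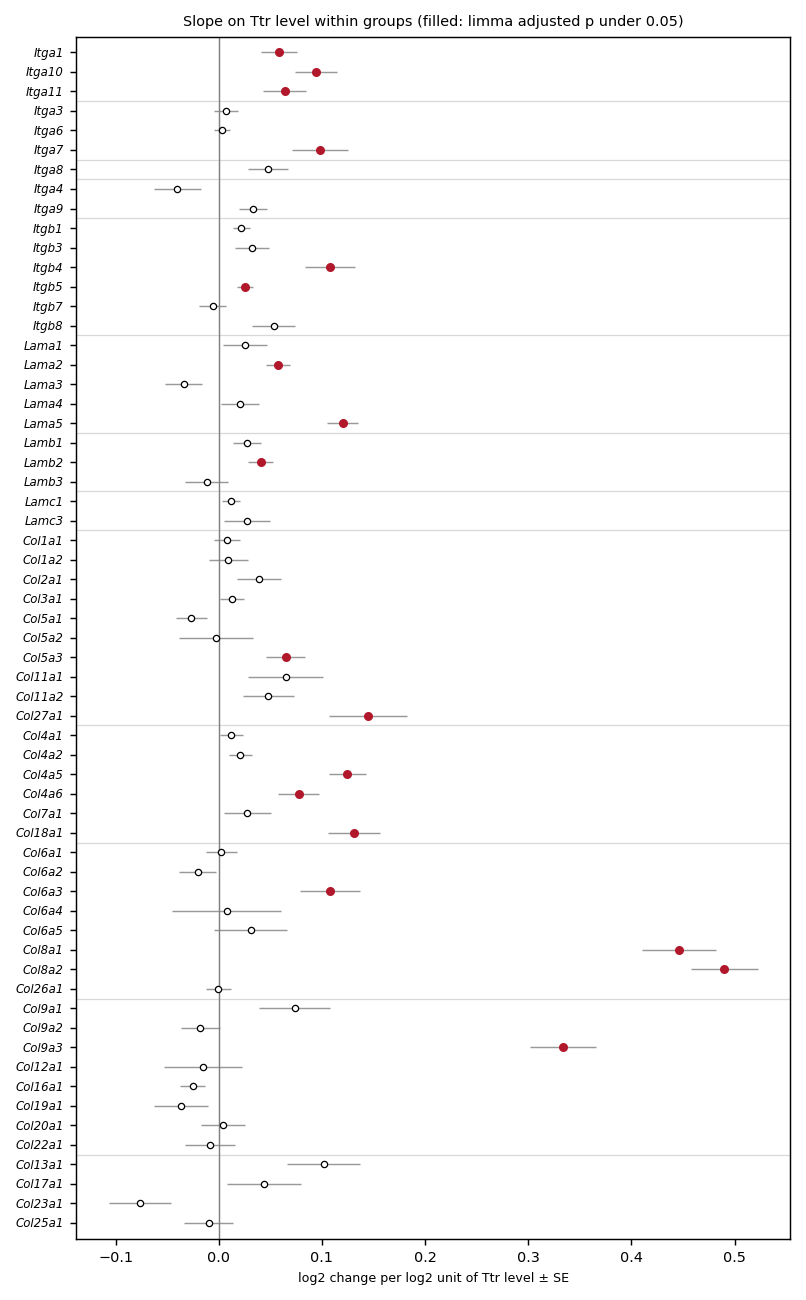
Slope on Ttr within groups for 61 of the 62 measured members (log2 level per log2 unit of Ttr), with the SE of the limma fit; filled points passed an adjusted p under 0.05. All 18 filled points lie above 0, led by Col8a2, Col8a1 and Col9a3.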

How the data were processed

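Hippocampal transcripts were measured on Agilent mouse expression arrays in 6 APP/PS1 UA, 7 APP/PS1 vehicle and 6 WT vehicle samples, each on an array of its own. Cy3-labelled cRNA came from 200 ng total RNA, per the labels' protocols. Deposited spot intensity was extracted with Agilent Feature Extraction 12.0.3.1, per the file headers, with the green intensity background-subtracted and not normalized between arrays. The deposited value table is a score: it equals the per-array z-score of log10 intensity over all spots, to within 0.005, with column medians from -0.28 to -0.17, and it served as an alternative.

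Of 62976 spots per array, 3671 controls and 0 to 172 non-uniform spots were left out, and spots of a probe were averaged, giving 56605 probes. Values were log2 processed green intensity, less the 75th percentile of each array. Probes well above background on at least 6 arrays were kept (33454), and the brightest probe stood for a gene. Accessions were matched to RefSeq (GRCm38.p6), which named 32994 probes. Probes left without a symbol were counted as genes under their own identifier. Among the members 14 had several kept probes, and those of 3 (Col25a1, Col26a1 and Lamb1) differed in sign between vehicle and WT mice.

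A single limma 3.58.1 fit (lmFit and eBayes, R 4.3.3) over 19 arrays gave the group differences, and a second, with group as a term, the slope on Ttr. Benjamini-Hochberg adjustment of 2-sided p-values ran over all 25603 genes, and calls were made under 0.05. The fit was tested on simulated data. Figures were drawn with matplotlib 3.10.9. Each array was taken as 1 mouse, and p-values measure only the spread between these samples. Precision is limited by how few arrays there are.

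The members, gene lists and tests were chosen with earlier results of these data known. Named genes were, per comparison, the called members or, with fewer than 8 called, the 8 of smallest p, along with Col4a1, Col4a2, Lamc1, Lama4, Col1a1, Col1a2, Col3a1, Col25a1, Itgb1, Itgb5 and Itga6. Of each matrix list the called genes or the 2 of smallest p were named. Itga1, Itga7, Itga11, Itgb4, Col12a1 and the other called slopes were named after their values were seen. Alternatives were quantile scaling, normexp on the median signal (offset 50, because no mean signal column was used here), other percentiles, filters and probe rules, the deposited values, slide, replicate and sex terms, and leaving out arrays. Fits within each Ttr cluster were added after seeing the data. The values of 1 member are not reported here.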

Additional observations from a re-analysis of the deposited data

Results flagged for a closer look

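In 90 groups of arrays, 30 genes in 3 groups each, 10 held 1 array that stood apart from the rest by Dixon's criterion at the 95% level, where chance alone gives about 1 in 20. Of these, 4 involve WT replicate 3, the WT array of high Ttr: Col8a1 at 2.70 (other WT arrays -1.76 to -0.71), Col8a2 at 0.053 (-3.96 to -2.63), Col9a3 at 0.39 (-3.11 to -2.51) and Itgb8 at -2.81 (-4.00 to -3.68). The first 3 of these genes had the steepest slopes on Ttr, and that of Itgb8 did not pass (adjusted p = 0.0792).

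The remaining 6 were on 6 different arrays. In UA mice Col11a1 was at -5.40 on replicate 6 (others -4.07 to -3.31), and Lamc1 was at 0.41 on replicate 3 (others 0.65 to 0.78). In APP/PS1 vehicle mice Col20a1 was at -1.67 on replicate 6 (others -3.07 to -2.57), Col3a1 at -1.55 on replicate 1 (others -1.21 to -0.95) and Itga9 at -1.85 on replicate 7 (others -2.92 to -2.51). In WT mice Col4a2 was at -0.99 on replicate 1 (others -0.69 to -0.51).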

How the results depend on the processing

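Of the counts of members called, 105 recomputed values stayed near the reported one and 8 did not. Between APP/PS1 vehicle and WT mice, 3 members were called, 5 with normexp (Itgb5, Itga6, Itgb8, Col11a2 and Col5a3, all higher), 1 with a replicate block, and 0 with slide as a block or within slide 1. Leaving out single arrays gave 2 to 4. Between UA and APP/PS1 vehicle mice normexp gave 4 calls in place of 0, and 1958 in place of 0 over all genes. Leaving out arrays gave 0 members throughout, as it did between UA and WT mice. Slopes on Ttr were called for 8 to 19 members with single arrays left out, in place of 18, for 0 over arrays of low Ttr and for 1 over arrays of high Ttr. The replicate numbers did not pair the samples (correlations of same-numbered arrays from -0.55 to 0.39), and the block took Itga6 to an adjusted p of 0.0651 and Lama3 to 0.0922. The limma adjusted p between vehicle and WT mice ran over the alternatives from 0.0013 to 0.150 for Itgb5 and from 0.0045 to 0.135 for Itga6. Lama3 lost its call under 17 alternatives, among them no filter on dim probes (0.101), the deposited values (0.0535), only the groups compared (0.0786), and leaving out vehicle replicate 1, 4, 6 or 7 or WT replicate 1, 2, 4, 5 or 6. With sex as a covariate Col12a1 also passed, at -0.97 (adjusted p = 0.0387). Over all genes, calls between vehicle and WT mice numbered 1288, 78 with slide as a block, 22 within slide 1, 338 with a replicate block, 373 with no filter, 804 with the deposited values, 409 with only the groups compared, 2101 with normexp and 1965 with sex, and 403 (without WT replicate 6) to 2199 (without WT replicate 3) with single arrays left out. The share of those calls that were higher was 56.8%, and 75.1% with normexp, 83.9% with no filter and 40.2% with the deposited values. With no filter the median of all genes moved to 0.10.

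The sign turned for the differences and slopes that follow, none of which passed as reported except the slope of Col18a1. Between vehicle and WT mice Lamc1 turned with normexp (-0.035), the deposited values (-0.0074), slide (-0.033, the same within slide 1), the replicate block (-0.026) and Ttr as a covariate (-0.011), Col3a1 with slide (-0.030, the same within slide 1), and Col25a1 with the mean of its probes (-0.18). Between UA and vehicle mice Lama4 turned with quantile scaling (0.0056) and the deposited values (0.0036), Lama3 (-0.022) and Itgb1 (0.023) with normexp, Col1a1 with the deposited values (0.0055) and the replicate block (0.0077), and Lamc1 (-0.028) and Col3a1 (-0.13) with slide and within slide 2. Between UA and WT mice Col4a1 turned with normexp (0.035) and the other percentile (0.0013). Lamc1 (-0.0029) and Col25a1 (-0.0085) turned with normexp, and Col25a1 with the mean of its probes (-0.29). With slide Col1a1 (-0.045), Lama1 (-0.13), Lamc1 (-0.061), Col1a2 (-0.075), Col3a1 (-0.16) and Itgb1 (-0.054) turned. No slide held both UA and WT arrays, so these values with slide are indirect, through the vehicle arrays. Slopes turned with normexp for Lama4 (-0.0029), Col1a1 (-0.00047), Col1a2 (-0.0050) and Itga6 (-0.0026), for Col25a1 with the deposited values (0.0053) and slide (0.0030), and for Lama4 (-0.025) and Itga6 (-0.011) without the 2 arrays farthest from the median Ttr. Over arrays of low Ttr they turned for Col18a1 (-0.0031), Lamc1 (-0.011), Col1a2 (-0.032), Col25a1 (0.048) and Itgb1 (-0.0029), and over arrays of high Ttr for Lama4 (-0.18), Col3a1 (-0.12), Col25a1 (0.21) and Itga6 (-0.038). With single arrays left out, Lamc1 ran from -0.026 to 0.054 between vehicle and WT mice. Between UA and vehicle mice Lamc1 ran from -0.013 to 0.076, Lama4 from -0.12 to 0.060, Col1a1 from -0.081 to 0.028, Col3a1 from -0.013 to 0.11 and Itgb1 from -0.098 to 0.00066. Between UA and WT mice Col4a1 ran from -0.041 to 0.030, Col25a1 from -0.057 to 0.18 and Itga6 from -0.024 to 0.057. Slopes ran from -0.0038 to 0.027 for Lama4, -5.5e-05 to 0.017 for Col1a2, -0.062 to 0.0091 for Col25a1 and -0.00087 to 0.0082 for Itga6. Leaving out a single array moved other named differences by over 1.5 times: between vehicle and WT mice Lama4 to 0.15 without vehicle replicate 2 and Col25a1 to 0.23 without WT replicate 3, between UA and vehicle mice Col4a1 to -0.14 and Col1a2 to -0.037 without vehicle replicate 7, and Col1a2 to -0.21 without vehicle replicate 1, and between UA and WT mice Col1a2 to 0.15 without WT replicate 2. Differences under 0.15 in size, those of Col3a1 between vehicle and WT mice among them, also moved by that much. The cause of these turns and moves was not tested.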
